A study of Mus musculus with 47 samples.

Results

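The H3K27ac peaks described here were those of control male liver that lay at the start of a protein-coding gene and had a counterpart in the liver of every other group. They were selected on the peak calls themselves: an autosomal peak of control male liver was kept when it overlapped, by at least 1 bp, a peak of control female liver and of the E1/E2-KO liver of each sex, and lay within 1 kb of the annotated start of a protein-coding gene. This rule kept 10520 of the 28862 autosomal peaks of control male liver, out of 498557 peaks and regions in the 12 lists of the series. The kept peaks lay at the starts of 9569 of the 21418 autosomal protein-coding genes (44.7%), which are called genes with a constant promoter below. The other 11849 genes serve as the comparison.

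The lists came from ChIP-seq of livers of 7 week old mice. Control mice carried floxed Ezh2 (Ezh2 f/f). E1/E2-KO mice, called KO below, were Ezh1-/- in all cells and Ezh2 f/f with an Alb-Cre transgene (AC+). This Cre is driven by the albumin promoter and removes Ezh2 in hepatocytes, so the other cells of the liver kept Ezh2. Males and females of both genotypes were used, with 4 livers behind each list, except that the labels name 3 for the H3K4me1 list of KO females where the methods text gives 4. The reads of the livers of a group were joined before peaks were called, so each group is 1 list per mark, no value below has a replicate error, and no test between groups was possible. The lists hold positions without heights or read counts, and their depth is unknown. Ranges in brackets after a share are its 95% Wilson interval and describe counting error alone. Because whole liver was used, a mark on more cells and more of a mark per cell cannot be told apart.

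H3K27ac, acetylation of lysine 27 on histone H3, is placed by the acetyltransferases Ep300 and Crebbp at the starts of transcribed genes and at active enhancers. H3K27me3, trimethylation of the same lysine, is placed by the Polycomb repressive complex PRC2, whose catalytic subunit is Ezh2 or Ezh1, and is found over silent genes. One histone tail cannot carry both at once. H3K4me1 marks enhancers and, at active promoters, typically sits on both flanks of the start rather than on it, because the nucleosomes next to the start carry trimethylated lysine 4 instead. Many promoters of widely expressed genes in mammals are rich in the CpG dinucleotide, whereas many promoters of genes specific to a tissue are not.

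The sequence at the starts differed between kinds of constant promoter, and 9 starts are printed to show this. Each run is 280 bases of the NCBIM37 (mm9) genome, from 250 bases before the annotated start to the first 30 bases of the transcript, on the strand of the gene. Capitals mark matches, on either strand, to the motifs searched: GGGCGG for the GC box, CCAAT for the motif of that name, TATAAA for the TATA box, TGACGTCA for the cAMP response element, CCGGAAG for Ets factors, GCGCATGCG for Nrf1, AAGATGGCG for YY1, CAAAGTCCA for Hnf4, TGTTTAC for Fox factors, GTTAATNAT for Hnf1 and TTGCGCAA for C/EBP factors. N stands for any base, and matches may overlap. A match is a run of letters and not a measured binding site. The first 3 runs are from genes used in most cells: Suz12 (chr11:79806358-79806637, + strand), a core subunit of PRC2, Rpl13 (chr8:125626000-125626279, + strand), a ribosomal protein, and Hspe1 (chr1:55144726-55145005, + strand), a mitochondrial chaperonin that is transcribed away from its partner Hspd1.
Suz12: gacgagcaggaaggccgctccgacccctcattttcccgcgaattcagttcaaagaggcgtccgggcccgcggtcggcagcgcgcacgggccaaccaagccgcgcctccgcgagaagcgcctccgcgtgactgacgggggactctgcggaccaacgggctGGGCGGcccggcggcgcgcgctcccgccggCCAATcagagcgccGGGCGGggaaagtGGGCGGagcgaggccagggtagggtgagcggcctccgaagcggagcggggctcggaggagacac
Rpl13: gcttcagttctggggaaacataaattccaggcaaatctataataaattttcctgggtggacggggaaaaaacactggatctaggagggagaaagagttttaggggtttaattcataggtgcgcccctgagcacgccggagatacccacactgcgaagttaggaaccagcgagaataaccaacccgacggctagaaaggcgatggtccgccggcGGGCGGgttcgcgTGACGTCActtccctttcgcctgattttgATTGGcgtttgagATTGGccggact
Hspe1: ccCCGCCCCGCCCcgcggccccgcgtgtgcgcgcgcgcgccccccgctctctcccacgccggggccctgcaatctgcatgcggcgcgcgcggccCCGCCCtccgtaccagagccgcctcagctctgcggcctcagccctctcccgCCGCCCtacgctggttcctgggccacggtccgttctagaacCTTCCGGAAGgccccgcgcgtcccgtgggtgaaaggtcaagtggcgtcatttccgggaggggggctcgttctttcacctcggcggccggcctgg
Suz12 held 3 GC boxes and a CCAAT box. Rpl13 held a GC box, 2 CCAAT matches after the start and a cAMP response element whose first base lay 24 bases before the start. Hspe1 held 4 GC boxes and 2 overlapping Ets matches. The number of CpG dinucleotides in these runs was 41 at Suz12, 19 at Rpl13 and 39 at Hspe1.

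The next runs are from CpG-rich promoters that lay inside H3K27me3 regions: Thrb (chr14:18493224-18493503, + strand), the thyroid hormone receptor beta, which was inside a region in both KO lists and in neither control list, and Yap1 (chr9:8004567-8004846, - strand), the transcriptional coactivator of the Hippo pathway, which was inside a region in all 4 lists.
Thrb: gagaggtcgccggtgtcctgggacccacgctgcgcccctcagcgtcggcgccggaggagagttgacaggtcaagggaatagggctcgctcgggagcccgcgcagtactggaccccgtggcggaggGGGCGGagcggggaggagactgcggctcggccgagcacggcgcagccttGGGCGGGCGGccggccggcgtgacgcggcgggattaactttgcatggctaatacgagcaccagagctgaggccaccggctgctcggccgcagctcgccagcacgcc
Yap1: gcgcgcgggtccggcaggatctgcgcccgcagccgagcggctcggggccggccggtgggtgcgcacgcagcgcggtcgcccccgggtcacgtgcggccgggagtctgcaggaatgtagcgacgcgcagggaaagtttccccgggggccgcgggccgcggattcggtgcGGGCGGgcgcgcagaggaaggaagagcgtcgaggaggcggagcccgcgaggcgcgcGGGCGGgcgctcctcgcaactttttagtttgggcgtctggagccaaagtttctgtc
Both hold only GC boxes among the motifs searched, 3 in Thrb and 2 in Yap1, with 35 and 45 CpG dinucleotides.

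The last runs are from genes of hepatocyte function: Alb (chr5:90889665-90889944, + strand), serum albumin, Fga (chr3:82829825-82830104, + strand), the fibrinogen alpha chain, G6pc (chr11:101228625-101228904, + strand), the glucose-6-phosphatase that releases glucose from the liver, and Cyp8b1 (chr9:121825394-121825673, - strand), the sterol 12-alpha-hydroxylase of bile acid synthesis.
Alb: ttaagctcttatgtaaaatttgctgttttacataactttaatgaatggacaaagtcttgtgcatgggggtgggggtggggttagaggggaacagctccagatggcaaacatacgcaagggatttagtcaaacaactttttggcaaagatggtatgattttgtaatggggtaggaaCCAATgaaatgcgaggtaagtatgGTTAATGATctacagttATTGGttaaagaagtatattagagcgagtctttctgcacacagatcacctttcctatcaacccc
Fga: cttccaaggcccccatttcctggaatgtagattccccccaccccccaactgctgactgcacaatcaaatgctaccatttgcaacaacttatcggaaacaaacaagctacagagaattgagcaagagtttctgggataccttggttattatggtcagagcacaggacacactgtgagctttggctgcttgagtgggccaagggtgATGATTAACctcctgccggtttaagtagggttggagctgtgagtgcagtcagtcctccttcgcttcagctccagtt
G6pc: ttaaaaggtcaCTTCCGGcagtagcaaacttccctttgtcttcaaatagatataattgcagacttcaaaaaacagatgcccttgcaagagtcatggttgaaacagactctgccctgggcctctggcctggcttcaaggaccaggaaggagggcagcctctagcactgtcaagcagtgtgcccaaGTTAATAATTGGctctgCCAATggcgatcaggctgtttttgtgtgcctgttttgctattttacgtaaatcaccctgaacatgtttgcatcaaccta
Cyp8b1: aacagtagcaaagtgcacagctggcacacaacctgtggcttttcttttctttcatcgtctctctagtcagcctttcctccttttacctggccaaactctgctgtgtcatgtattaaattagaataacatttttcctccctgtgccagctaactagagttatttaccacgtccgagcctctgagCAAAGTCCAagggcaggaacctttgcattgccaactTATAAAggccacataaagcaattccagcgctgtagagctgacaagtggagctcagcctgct
Alb, Fga and G6pc each held an Hnf1 match, whose first base lay 51, 46 and 66 bases before the start. Alb and G6pc also held 2 CCAAT matches each, and G6pc an Ets match. Cyp8b1 held an Hnf4 match 67 bases and a TATA box 31 bases before the start. These 4 runs held 3, 3, 3 and 4 CpG dinucleotides. They were chosen after their values were seen, and motif counts over whole gene lists are given below.

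Over all starts with a full window, from 250 bases before to 50 after, 72.0% of the genes with a constant promoter (71.1 to 72.9%) had a CpG-rich window, here at least 50% G and C and a ratio of observed to expected CpG of at least 0.6. Among the other protein-coding genes the share was 19.3%, and among all 21413 it was 42.8%. The median G and C content was 61% at constant promoters and 50% at the other starts. The share was 86.9% at the 1312 constant promoters of divergent gene pairs (below), 89.8% at the 59 of splicing factors and 73.4% at the 64 of ribosomal proteins. It was 43.8% at the 16 of hepatocyte transcription factors (23.1 to 66.8%) and 5.26% at the 19 of plasma protein genes (0.935 to 24.6%).

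The GC box was found in 65.5% of the windows of genes with a constant promoter and in 43.7% of all windows. The Ets motif was in 1917 of 9566 windows, against 10.9% of all windows, the Nrf1 motif in 3.95% against 2.13%, the YY1 motif in 3.49% against 1.84%, and the cAMP response element in 3.81% against 2.31%. The TATA box went the other way, with 6.44% against 13.5% of all windows. The CCAAT box was found in 37.6% of both. The Hnf4 motif was in 0.429% of the windows at constant promoters and 0.467% of all, and the Hnf1 motif in 0.585% and 0.705%. Among constant promoters of liver lists, Hnf1 was in 3 of 19 windows of plasma protein genes and 1 of 5 of gluconeogenesis. It was in none of 16 of hepatocyte transcription factors, 4 of the urea cycle and 8 of bile acid synthesis and transport. In these lists Hnf4 was in 1 of 19 windows of plasma protein genes, 2 of 8 of bile acid synthesis and transport, and none of the rest. The part of base composition in these shares was not tested.

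The peaks sat mostly just inside the gene. Of the 10520 peaks, 3447 (32.8%) held the start, 5257 (49.97%) lay wholly downstream of it with a median midpoint 474 bp into the gene, and 1816 (17.3%) lay wholly upstream, with a median midpoint at -498 bp. The distance limit of 1 kb was seldom reached, since the median distance from peak to start was 66 bp. At the limit, the 106 peaks that lay more than 900 bp away had a median width of 491 bp in control male liver, and the 85 constant peaks within the next 100 bp outside had 434 bp. The midpoint was in an exon for 30.9% of the peaks, in an intron for 48.1% and outside the annotated protein-coding genes for 21.0%.

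Seen by gene, 3839 genes (40.1%) had a control male peak over the start, 3425 (35.8%) had peaks downstream only, 1760 (18.4%) had separate peaks on both sides of an uncovered start, and 545 (5.70%) had peaks upstream only. The uncovered starts were partly covered in the other lists. Of the 1760 starts between 2 control male peaks, 659 (37.4%) lay inside a peak of control female liver, 539 (30.6%) inside one of KO male liver and 390 (22.2%) inside one of KO female liver. Over all 9569 genes the start itself was inside an H3K27ac peak for 40.2% in control male, 58.6% in control female, 54.0% in KO male and 47.6% in KO female liver. In each list the share at the start was below the downstream summit, which was 83.8, 90.9, 90.4 and 88.5% in the same order. The upstream summit, at -300 bp, was 43.0, 57.8, 54.3 and 50.05%, so the start was below it in control male, KO male and KO female liver and slightly above it in control female liver. Control male had the shortest of the 4 lists (29359 peaks, against 49702 to 55930), and the part of list length in these shares was not tested.

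**Figure D1:**
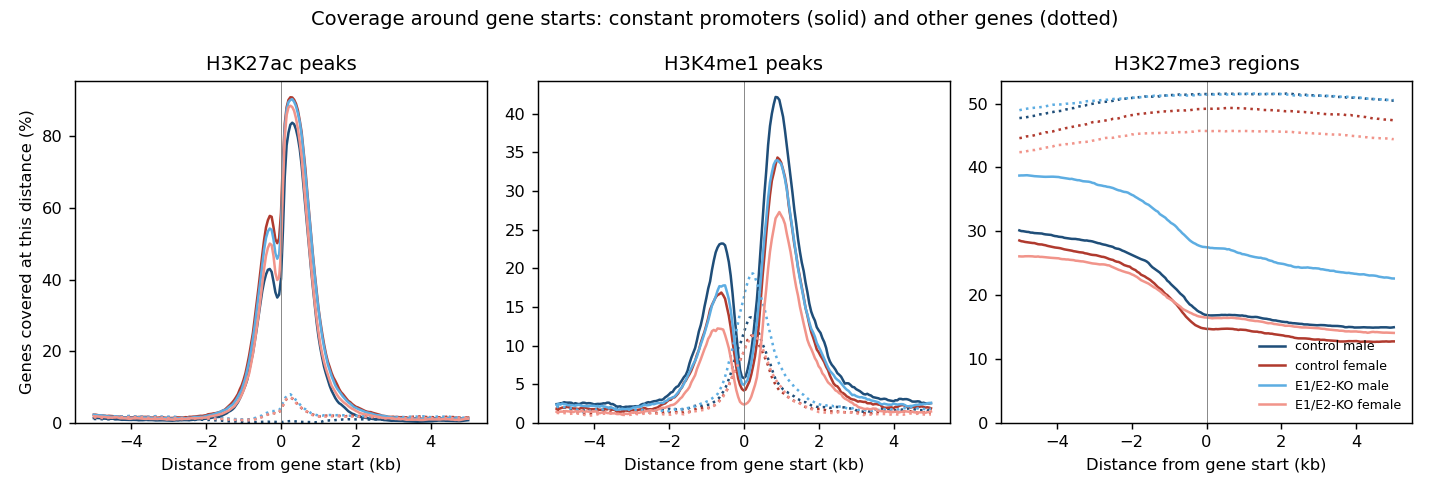
Percent of genes whose sequence at a given distance from the start (kb, gene direction to the right) is inside an H3K27ac peak, an H3K4me1 peak or an H3K27me3 region, in each of the 4 lists, for the 9569 genes with a constant promoter (solid lines) and the 11849 other genes (dotted lines). H3K27ac is highest downstream of the start, at 83.8 to 90.9%, H3K4me1 has its summits farther out with 2.36 to 5.78% at the start, and H3K27me3 covers fewer constant promoters than the 5 kb upstream of them.

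Promoter peaks were constant more often than other peaks, which is the property the rule asked for and is given as a description. Of the 10963 control male peaks within 1 kb of a start, 96.0% had a counterpart in all 3 other lists, whereas 72.1% of the 17899 peaks farther away had one. The 443 promoter peaks that missed a list were narrow, with a median of 299 bp. Single lists overlapped between 97.0% (KO female) and 98.5% (control female) of the promoter peaks.

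Measured at the control male peaks, widths were smallest in control male liver and largest in control female liver. The width in each other list was taken as the summed width of the peaks of that list that overlapped the control male peak. The median was 727 bp in control male liver (95% interval of the median 717 to 738 bp), 1035 bp in control female, 968 bp in KO male and 838 bp in KO female liver. The middle 50% of the peaks spanned 493 to 1036 bp in control male and 714 to 1394 bp in control female liver. For 46.9% of the peaks the widest list was control female, for 31.7% KO male, for 10.6% KO female and for 10.4% control male. A wide peak of another list can span 2 control male peaks and is then counted for both. This was so for 1527 kept peaks (14.5%) in control female, 1210 (11.5%) in KO male and 860 (8.17%) in KO female liver. When the same rule was run from each other list in turn, an alternative added after seeing the data, the median width in the list itself was 912 bp in control female, 856 bp in KO male and 720 bp in KO female liver, so that KO female and not control male then had the smallest median. For peaks that hold the start it was 1054 bp in KO female and 1081 bp in control male liver.

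Compared peak by peak, the median ratio of width in KO male to control male liver was 1.15, and 2768 peaks (26.3%) were at least 1.5 times wider in KO male liver while 126 (1.20%) were at least 1.5 times narrower. Among all 23432 constant autosomal peaks these shares were 35.7% and 2.08%. In females the ratio went the other way, with a median of 0.887, and 217 peaks (2.06%) were at least 1.5 times wider in KO female liver while 2018 (19.2%) were narrower. Among all constant peaks these shares were 3.67% and 26.3%. The promoter peaks differed in the same direction as the constant peaks far from starts in both sexes, whose median ratios were 1.38 in males and 0.832 in females. Control female peaks were at least 1.5 times wider than control male peaks for 31.2% of the promoter peaks and 49.9% of those far from starts. Depth is unknown for every list, and its part in these widths was not tested.

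**Figure D2:**
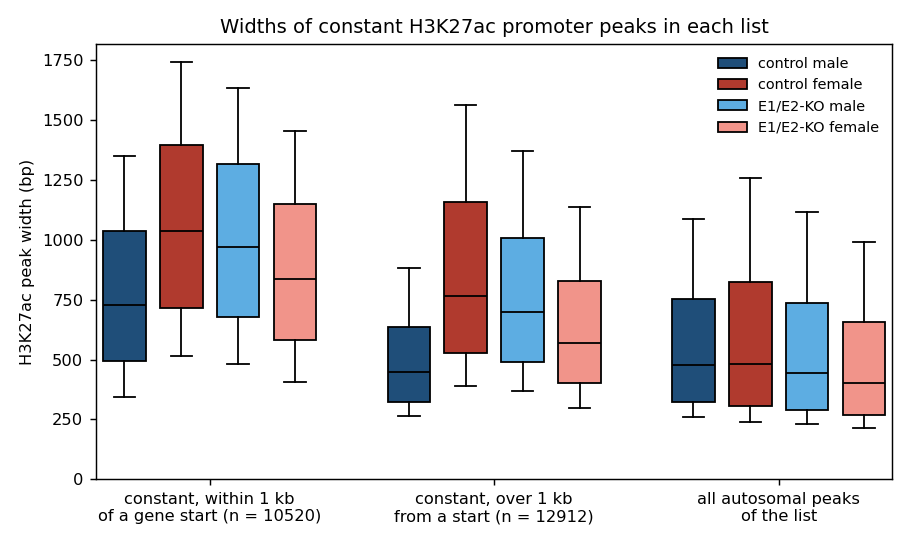
Width in bp of H3K27ac peaks in the 4 lists (box, middle 50% with the median; whiskers, 10th and 90th percentiles) for constant peaks within 1 kb of a gene start, constant peaks farther from a start, and all autosomal peaks of each list. Constant promoter peaks have medians of 727 to 1035 bp, against 449 to 764 bp for constant peaks far from starts.

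Promoter peaks were wider than constant peaks far from a start in each list, with medians of 727 against 449 bp in control male and 1035 against 764 bp in control female liver. Peaks that held the start were the widest kind, with a median of 1081 bp in control male liver, against 665 bp for peaks downstream and 451 bp for peaks upstream. Widths were correlated between lists across the 10520 peaks, with Pearson's r of log2 width from 0.579 (control male and control female) to 0.751 (the 2 KO lists). These correlations are a description, since peaks of separately called lists were matched by overlap with the same control male peak and share sequence. The kept peaks were seldom broken up, since 102 of them overlapped more than 1 peak in control female, 221 in KO male and 433 in KO female liver.

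Of the 10 widest constant promoters, all but Alad had widths that differed by at most 1.27-fold between the 4 lists. Rdh10, a retinol dehydrogenase, had the widest control male peak (chr1:16094046-16096746, intervals given in mm9), with 2701 bp in control male, 2602 bp in control female, 2789 bp in KO male and 2385 bp in KO female liver. Brd2, a reader of acetylated histones, followed with 2647, 2905, 2626 and 2948 bp in the same order (chr17:34256890-34259536). Alad, which makes porphobilinogen for heme, had 2601 and 2998 bp in the control lists and 1900 and 1517 bp in the KO lists, a ratio of widest to narrowest of 1.98. The remaining 7 of the 10 widest were Lpp, Thrb, Hmgb1, Tox, the ubiquitin ligase Trip12, the chromatin remodeller subunit Ino80d and the transcription kinase Cdk12, with 2343 to 2580 bp in control male liver.

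The 5 largest ratios of width between lists were at peaks that were narrow in control male liver. The way width was taken favours this. It sets a single control male peak against the full width of every peak of another list that overlaps it. Shmt1, a serine hydroxymethyltransferase, had a peak of 287 bp in control male liver and of 2984 bp in control female, 2509 bp in KO male and 1574 bp in KO female liver. Dio1, the deiodinase that activates thyroid hormone, had 270, 501, 2538 and 1928 bp in that order, so both KO lists stood above both control lists. The clock repressor Per2 had 251, 1133, 1132 and 1997 bp, and the PRC1 subunit Bmi1 had 246, 504, 1750 and 871 bp. B3gnt3, a glycosyltransferase, had 232, 1124, 1663 and 438 bp. All 5 control male peaks lay downstream of the start without reaching it.

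H3K4me1 flanked most constant promoters and was seldom on them. A peak of H3K4me1 lay within 2 kb of the start for 8627 of the 9569 genes (90.2%) in control male, 7709 (80.6%) in control female, 7895 (82.5%) in KO male and 6803 (71.1%) in KO female liver. Among the other protein-coding genes these shares were 29.2, 25.9, 35.3 and 27.2%. The start itself was inside an H3K4me1 peak for only 553 genes (5.78%) in control male, 400 (4.18%) in control female, 469 (4.90%) in KO male and 226 (2.36%) in KO female liver, which was below the other genes in each list (11.6, 9.15, 16.2 and 9.24%).

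The flanks were unequal. Coverage by H3K4me1 peaks was highest 850 bp downstream of the start in control male liver, where 42.2% of the genes were covered, and had a lower summit of 23.2% upstream at -600 bp. The summits of the other lists lay at 900 to 950 bp downstream, with 34.3% in control female, 34.0% in KO male and 27.3% in KO female liver. Peaks on both sides of the start within 2 kb were present for 44.2% of the genes in control male, 28.9% in control female, 30.9% in KO male and 18.9% in KO female liver. Peaks downstream only were present for 33.6 to 37.7% and peaks upstream only for 12.3 to 14.6%, so the lists differed in the share of genes flanked on both sides more than in the shares flanked on one. The median distance from the start to the nearest H3K4me1 peak was 525 bp in control male, 702 bp in control female, 649 bp in KO male and 884 bp in KO female liver.

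Flanking H3K4me1 was found in all 4 lists for 5971 genes (62.4%), on both sides in all 4 for 961 (10.0%), and in no list for 482 (5.04%). Within 5 kb, 89 genes had none in any list. The 5 widest of these were Pard3, a cell polarity scaffold, the ubiquitin ligase March5, Rassf3, the deubiquitinase Yod1 and Arhgap42, whose H3K27ac peaks spanned 1707 to 2133 bp in control male liver. The opposite arrangement, with the start inside an H3K4me1 peak in all 4 lists, was found for 129 genes (1.35%, against 4.68% of the other genes). The 5 widest were Tnfrsf14, the cullin Cul1, the interleukin 18 binding protein Il18bp, Zfp629 and Ccdc17, with 1588 to 1939 bp. Wide acetylated promoters thus occurred with H3K4me1 absent, beside and over the start.

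Between genotypes, flanking H3K4me1 within 2 kb was lost in KO male liver at 1029 constant promoters (10.8%) and gained at 297 (3.10%). Over all autosomal protein-coding starts 6.23% lost it and 6.15% gained it. As a share of the starts that had a peak to lose, the losses were 11.9% at constant promoters and 11.03% at all starts. In females 1385 (14.5%) lost it and 479 (5.01%) gained it, against 9.11% and 5.61% of all starts, and the losses were 18.0% and 18.1% of the starts that could lose a peak. Of the constant promoters without flanking H3K4me1 in control liver, 31.5% gained it in males and 25.8% in females, against 14.1 and 11.3% of all such starts. The H3K4me1 lists held 69797 (control male), 67913 (KO male), 54798 (control female) and 51417 (KO female) peaks, and the shares had the same order as these list lengths. With equal numbers of the widest H3K4me1 peaks taken from each list, the shares were 83.2% in control male, 78.8% in control female, 74.2% in KO male and 71.1% in KO female liver, so that KO male then lay below control female.

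H3K27me3 regions covered a smaller share of constant promoters than of other starts. The start was inside a region for 1615 genes (16.9%, 16.1 to 17.6%) in control male, 1407 (14.7%, 14.0 to 15.4%) in control female, 2631 (27.5%, 26.6 to 28.4%) in KO male and 1578 (16.5%, 15.8 to 17.2%) in KO female liver. Among the other genes the shares were 51.5, 49.2, 51.4 and 45.7%. The region caller joined windows across gaps of up to 2400 bp, so a start with no signal of its own can be counted as inside. Starts of constant promoters lay nearer to the edge of their region than other starts: the median distance to the nearest edge was 6950 bp at constant promoters and 13358 bp at the other genes in control male liver, and 21.9% against 6.33% lay within 2400 bp of the edge. When the whole stretch from 2 kb before to 2 kb after the start had to be inside, the shares were 13.8% in control male, 11.8% in control female, 22.6% in KO male and 13.5% in KO female liver. H3K27me3 was more frequent upstream of constant promoters than at them, with 30.1% of the genes covered 5 kb upstream, 16.9% at the start and 15.0% 5 kb downstream in control male liver, and 38.7, 27.5 and 22.6% in KO male liver.

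**Figure D3:**
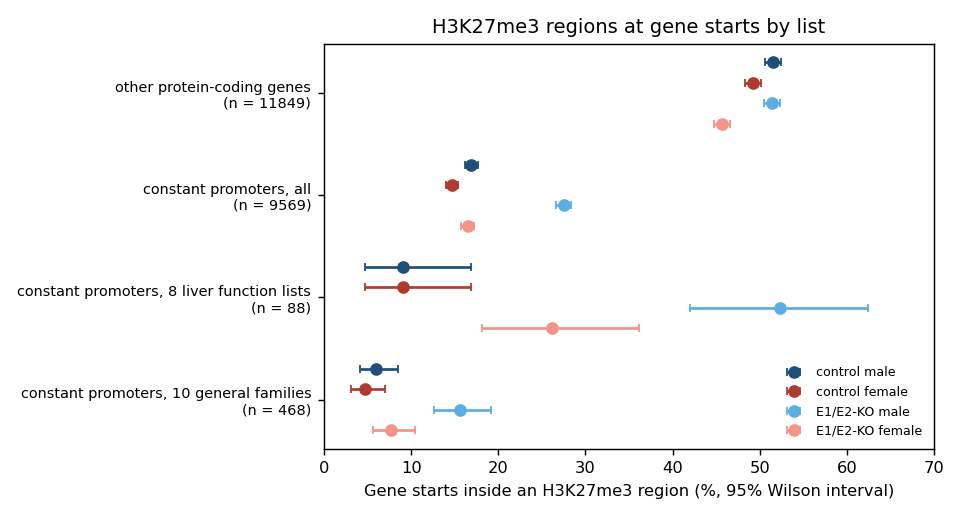
Percent of gene starts inside an H3K27me3 region in each of the 4 lists (points, with 95% Wilson intervals that cover counting error only) for other protein-coding genes, all genes with a constant promoter, and constant promoters of 8 liver function lists and 10 general gene families. Starts of the liver function lists are inside a region for 9.09% in both control lists, 52.3% in KO male and 26.1% in KO female liver.

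The list of KO male liver stood apart. A start that was outside all regions in control male liver and inside one in KO male liver was found for 1466 constant promoters (15.3%), and the reverse for 450 (4.70%). Over all autosomal protein-coding starts 9.87% gained and 5.18% lost a region. As a share of the starts that could change, 18.4% of the constant promoters and 15.4% of all starts gained a region, and 27.9% and 14.4% lost one. In females 719 constant promoters (7.51%) gained a region and 548 (5.73%) lost one, against 5.59% and 6.74% of all starts. As a share of the starts that could change, 8.81% of the constant promoters and 8.45% of all starts gained a region, and 38.9% and 19.9% lost one. Autosomal regions summed to 765 Mb in control male, 630 Mb in control female, 750 Mb in KO male and 633 Mb in KO female liver, and the part of these lengths in the counts was not tested. A gained region is a call present in one list and absent from another, and not a measured rise of the mark. The study compared single livers by read counts. It reported less H3K27me3 in KO liver at a majority of the sites that differed, and more at the rest.

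Seen over the 4 lists, 6276 constant promoters (65.6%) were inside a region in none and 728 (7.61%) in all, against 41.4% and 40.0% of the other genes. Other patterns were KO male alone, with 840 genes (8.78%, against 2.41% of the other genes), which was more frequent than all 4, and both KO lists with no control list, with 466 (4.87%, against 1.60%). Both control lists with no KO list were seen for 197 genes (2.06%, against 2.51%). Of the genes in KO male regions alone, 38.2% lay within 2400 bp of the edge of the region, against, in the same list, the 15.9% of those in both KO lists and the 5.91% of those in all 4.

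Promoters inside H3K27me3 in all 4 lists had narrow H3K27ac peaks, with a median of 545 bp in control male liver, against 894 bp where no list had a region. Those inside in both KO lists only had 807 bp and those inside in both control lists only had 616 bp. The KO-only class had the least flanking H3K4me1, present for 81.8% in control male, 64.4% in control female, 71.9% in KO male and 50.2% in KO female liver. For the class inside in all 4 lists these shares were 93.3, 87.8, 91.6 and 76.0%. The Ets motif was found in 7.99% of the windows of the class inside in all 4 lists and in 10.3% of the KO-only class, against 1917 of the 9566 windows of all constant promoters.

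The widest constant promoters inside H3K27me3 in all 4 lists were those of Pard3, Yap1, the endocytic adaptor Pacsin3, the synaptic scaffold Homer2, the nuclear lamin Lmna, the Wnt receptor Fzd1, the secreted Wnt inhibitor Notum and A530084C06Rik. Yap1 had H3K27ac peaks of 1984 bp in control male, 1949 bp in control female, 1803 bp in KO male and 1718 bp in KO female liver. Fzd1 had 1635, 1660, 1669 and 1658 bp, so the acetylated width was nearly equal in all groups while the start was inside a region in each. Notum had 1620, 1646, 1615 and 1567 bp. Both marks in the same cells and a mixture of cells with one or the other cannot be told apart.

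The widest of the 197 promoters inside regions in both control lists only were those of Pwwp2b, Obfc1, a subunit of the telomere-binding CST complex, Tshz2, Zbtb8a, Zfyve16, the glycosyltransferase Galnt7, 5830403L16Rik and Tmem63a. Their H3K27ac peaks spanned up to 1550 bp in control male liver. Pwwp2b had 1550 and 1640 bp in the control lists and 1469 and 1867 bp in the KO lists, and Zbtb8a had 1339, 1334, 1356 and 1320 bp.

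The 8 widest of the 466 promoters inside regions in both KO lists only were Thrb, Gcgr, the glucagon receptor, A430107O13Rik, Arhgef26, Cideb, a lipid droplet protein of very low density lipoprotein assembly, 2810459M11Rik, Hebp1, a heme-binding protein, and Abcb4, the transporter that moves phosphatidylcholine into bile. Gcgr had H3K27ac peaks of 2317 bp in control male, 2471 bp in control female, 2377 bp in KO male and 2389 bp in KO female liver (chr11:120390583-120392899 in control male). Cideb had 1866, 1914, 1826 and 1322 bp, and Abcb4 had 1797, 1698, 1685 and 1651 bp. Thrb, whose sequence is shown above, had 2386, 2130, 2002 and 1882 bp.

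Starts with narrower H3K27ac peaks were more often inside H3K27me3. When the 9569 genes were put into 5 groups of near-equal size by the width of their widest control male peak, the share inside a region went from 34.6% in the narrowest group (221 to 557 bp) to 18.3, 13.8, 10.8 and 6.80% in the widest (1220 to 2701 bp) in control male liver. In KO male liver it went from 43.1% to 28.3, 23.6, 23.8 and 18.7%, so it was not lower at every step. The other 2 lists went from 31.8% to 5.75% in control female and from 29.9% to 9.10% in KO female liver. Flanking H3K4me1 in control male liver was present for 86.3% of the narrowest group and for 90.4 to 91.9% of the others. CpG-rich windows made up 62.4% of the narrowest and 76.2% of the widest group, and the start was inside the control male peak for 13.8% and 79.2%.

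**Figure D4:**
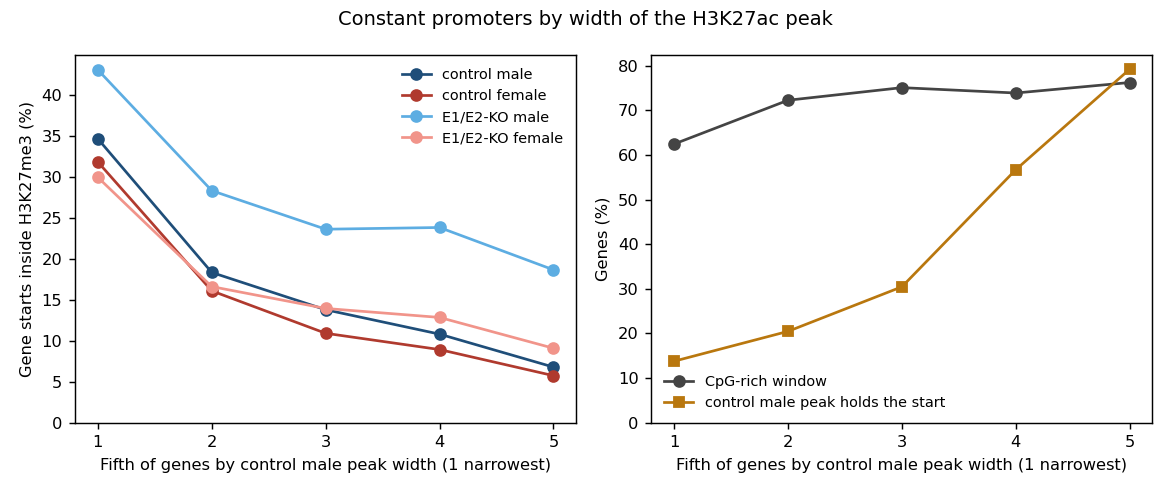
Genes with a constant promoter in 5 groups by the width of their widest control male H3K27ac peak (1 is narrowest). Left, percent of starts inside an H3K27me3 region in each list, which is 34.6% in the first and 6.80% in the last group for control male liver. Right, percent with a CpG-rich window and percent whose start is inside the control male peak.

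Most members of the families of general cell machinery had a constant promoter, and no olfactory receptor had one. Gene families and lists were counted with no test, beside the 44.7% of all genes. Families were taken by gene symbol, so a family can hold genes that share only the name, such as Rab11fip3 among the Rab GTPases. Constant promoters were found for all 29 Mediator subunits, 36 of 37 tRNA synthetases (97.3%), 59 of 63 splicing factors (93.7%), 70 of 77 mitochondrial ribosomal proteins (90.9%), 50 of 55 translation initiation factors (90.9%), 64 of 72 ribosomal proteins (88.9%), 45 of 51 proteasome genes (88.2%), 24 of 27 RNA polymerase subunits and 74 of 89 genes of the respiratory chain and ATP synthase (83.1%). Genes with Taf symbols, called TFIID subunits here, had 17 of 20. The families from Mediator to TFIID subunits are the 10 pooled elsewhere as general families. Outside that pool, E2 ubiquitin-conjugating enzymes had 29 of 34 and Rab GTPases 47 of 63. Zfp genes had 240 of 362 (66.3%) and solute carriers 164 of 343 (47.8%). Cytochromes P450 had 30 of 98 (30.6%), serpins 16 of 59, replication-dependent histones 16 of 67, potassium channels 5 of 94, keratins 2 of 51 and Hox genes 1 of 40. None was found for the 1106 olfactory receptors (a share of up to 0.346%), the 321 vomeronasal receptors or the 41 beta-defensins.

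**Figure D5:**
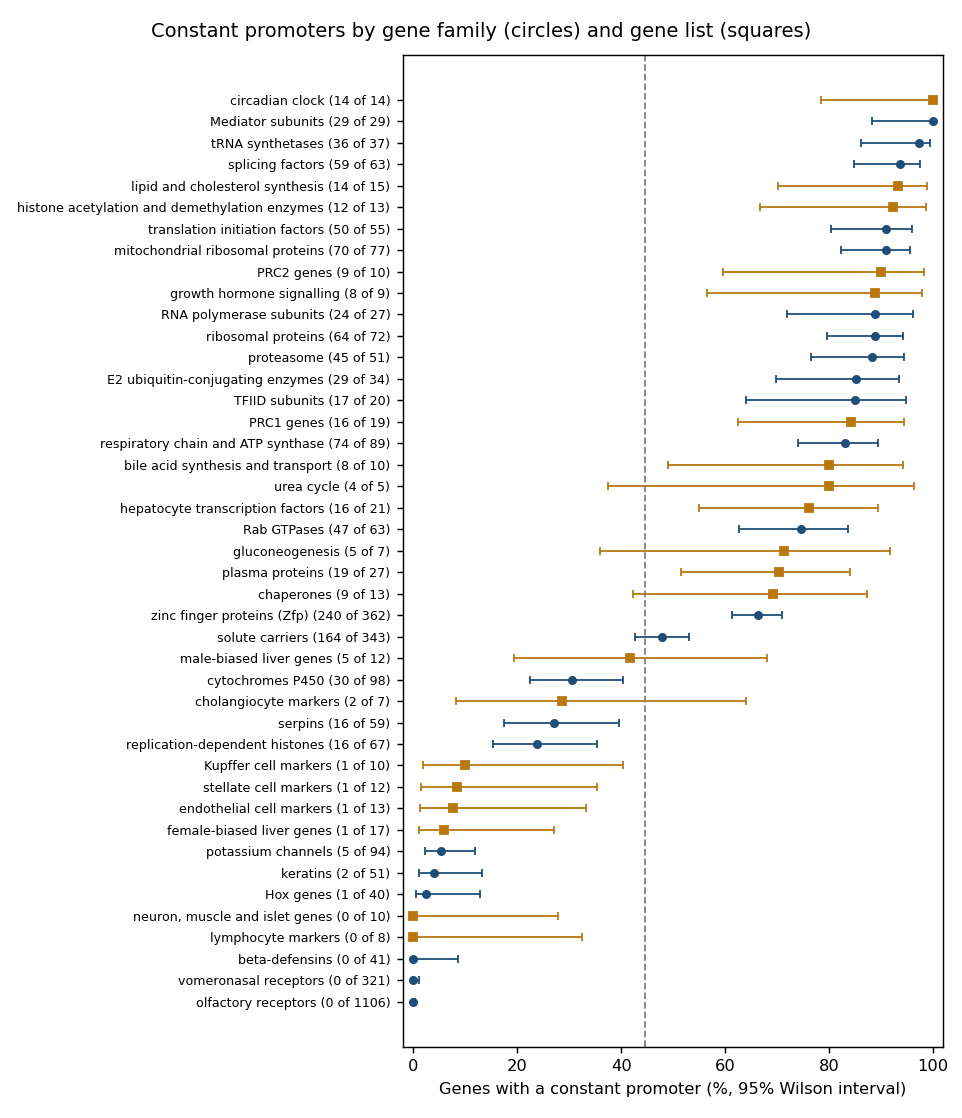
Percent of the genes of each family (circles) or list (squares) that had a constant promoter, with 95% Wilson intervals for counting error, and the number of genes beside each name. The dashed line is the 44.7% of all autosomal protein-coding genes; Mediator subunits and clock genes are at 100%, olfactory and vomeronasal receptors at 0.

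Genes with a constant promoter were in divergent pairs more often than other genes. A divergent gene pair, 2 genes transcribed away from each other from starts at most 1 kb apart, included 1312 of the genes with a constant promoter (13.7%) and 250 of the other genes (2.11%). Of all 1562 genes in such pairs 84.0% had a constant promoter, against 41.6% of the remaining genes. A single peak lay within 1 kb of 2 or more starts 1416 times (13.5% of the peaks), so such genes share their peak and are not separate observations. Hspd1 and Hspe1, the mitochondrial chaperonins, were such a pair, with peaks on both sides of the starts, the widest of which was shared and spanned 892 bp in control male, 903 bp in control female, 802 bp in KO male and 721 bp in KO female liver. By chromosome, the share of genes with a constant promoter was between 32.9% on chromosome 14 and 54.1% on chromosome 8.

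Ribosomal protein genes illustrate the general families. The widest were Rpl30 (1890 bp in control male, 1764 bp in control female, 1492 bp in KO male and 1040 bp in KO female liver), Rps27a, Rpl13 and Rpl34, and all 4 had flanking H3K4me1 in each list. Over the 64 genes the median width was 926, 1028, 1012 and 924 bp. No start of the 64 was inside H3K27me3 in either control list, and 7 (10.9%) were in KO male and 4 (6.25%) in KO female liver, against 27.5 and 16.5% of all constant promoters. Of the 45 proteasome genes none was inside in the control lists, and 6 and 4 were in the KO lists. Of the 70 mitochondrial ribosomal protein genes 6 and 4 were inside in the control lists and 19 and 6 in the KO lists.

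The genes of the Polycomb complexes were mostly among the constant promoters, 9 of 10 PRC2 genes and 16 of 19 PRC1 genes. Ezh2 itself had a peak of 883 bp in control male, 1784 bp in control female, 990 bp in KO male and 887 bp in KO female liver, with flanking H3K4me1 in all 4 lists and no H3K27me3 region. Ezh1 had 482, 593, 585 and 485 bp, with H3K4me1 within 2 kb in control male liver alone and an H3K27me3 region over the start in control male liver alone. A promoter peak does not show whether the exons targeted in the knockout were lost, so these values do not check the genotype. Suz12, whose start is printed above, had 1520, 1606, 1642 and 1447 bp, and Eed, the subunit that binds H3K27me3, had 1490, 1484, 1882 and 1391 bp. Aebp2 was the PRC2 gene left out, with H3K27ac within 1 kb in every list but control male. Cbx2, Cbx6, Cbx8 and Phc1, subunits of PRC1, were inside H3K27me3 in all 4 lists, with H3K27ac peaks of 1265, 691, 337 and 843 bp in control male liver. Cbx7, Pcgf1 and Pcgf5 had no H3K27ac within 1 kb of the annotated start in any list. These absences hold for 1 start per gene. With the starts of all protein-coding transcripts, 18 PRC1 genes and 10 PRC2 genes had a constant promoter.

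Genes of histone acetylation and demethylation, readers of acetylation included, had 12 of 13, with Ep300 at 1483 bp in control male, 1593 bp in control female, 1443 bp in KO male and 1265 bp in KO female liver. Crebbp had 1197, 1047, 1147 and 1178 bp. Kdm6b, a demethylase of H3K27me3, was the one without H3K27ac within 1 kb in any list, although H3K4me1 was within 2 kb in all 4. Of the chaperones, 9 of 13 had a constant promoter and none of the 9 was inside H3K27me3 in any list, as was so for 65.6% of all constant promoters. Pdia3, an isomerase of the endoplasmic reticulum, had the widest, with 1877, 1825, 1903 and 1511 bp. Hspa5, Hspa9, Hsp90aa1 and Hsp90b1 had no H3K27ac within 1 kb of the annotated start in any list. With the starts of all protein-coding transcripts 10 chaperones had a constant promoter. Within 2 kb of the start all 13 genes of histone acetylation and demethylation had one.

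Genes of liver function were frequent as well. Constant promoters were found for all 14 clock genes, 14 of 15 genes of lipid and cholesterol synthesis, 8 of 9 of growth hormone signalling, 8 of 10 of bile acid synthesis and transport, 4 of 5 of the urea cycle, 5 of 7 of gluconeogenesis, 16 of 21 hepatocyte transcription factors and 19 of 27 plasma proteins. Many of those left out lacked H3K27ac within 1 kb of the annotated start in the control male list alone. Ppara, Rxra and Gata6 among the transcription factors, Ahsg, Apoa1, Apoe, Gc and Hp among the plasma proteins, Cps1 of the urea cycle, and, for bile acids, Abcc2 and Cyp7a1, the rate-limiting enzyme of their synthesis, had H3K27ac within 1 kb in control female, KO male and KO female but not control male liver. Over all protein-coding starts the shares with H3K27ac within 1 kb were 51.6, 52.6 and 52.2% in those lists and 45.6% in control male liver. Some absences depended on the distance limit or the start used. Within 2 kb all 5 urea cycle genes, 21 plasma protein genes and 17 of the transcription factors had a constant promoter. The bile acid genes stayed at 8. With the starts of all protein-coding transcripts, 18 of the transcription factors and 19 of the plasma protein genes had one. The control male list was also the shortest, and the part of its length in these absences was not tested.

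Among the hepatocyte transcription factors the widest peak was that of Nr1h3, the liver X receptor alpha, with 1883 bp in control male, 1959 bp in control female, 1740 bp in KO male and 1731 bp in KO female liver. Nr1i3, the constitutive androstane receptor, had 1524, 1649, 1945 and 1823 bp, Nr0b2 had 1180, 1340, 1404 and 1161 bp and Nr1i2, the pregnane X receptor, had 1030, 1238, 1560 and 1126 bp. Hnf4a had 350, 592, 720 and 510 bp. The median of the 16 was, over the widest peak of each gene in each list, 701 bp in control male, 1158 bp in control female, 1377 bp in KO male and 961 bp in KO female liver, and over all genes with a constant promoter it was 838, 1082, 1027 and 913 bp.

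At many of these promoters the KO lists held H3K27me3 regions that the control lists did not, counted as calls and not as amounts of the mark. Of the 16 transcription factors, 2 starts were inside a region in control male, 3 in control female, 13 in KO male and 9 in KO female liver, and over all constant promoters the shares were 16.9, 14.7, 27.5 and 16.5%. Foxa1 and Foxa2, pioneer factors of the endoderm, were inside in all 4. Hnf4a, Foxa3, Nr5a2, Prox1 and Nr0b2 were among those inside in both KO lists and in neither control list. Cebpa, Cebpb, Nr1i2 and Nr1i3 were inside in KO male liver alone. Onecut1 was inside in every list but control male. Nr1h3, Nr1h4, the bile acid receptor, and Xbp1 were inside in none.

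The other liver lists also had more starts inside regions in KO male than in control male liver, and in females all but the growth hormone list had more in KO liver, where it had 1 in control and none in KO. Of the 19 plasma protein genes, 2 starts were inside a region in each control list, 9 in KO male and 5 in KO female liver. Apoc3, the retinol carrier Rbp4 and complement C3 were inside in both KO lists alone, and Fga, Fgg, Plg and Ambp in KO male liver alone. Vtn and Apoh were inside in all 4 lists, and Alb, Apob and Apoa2 in none. Of the 14 genes of lipid and cholesterol synthesis 2, 0, 7 and 2 were inside in control male, control female, KO male and KO female liver. Of the 14 clock genes 2, 2, 8 and 3 were, with Rora and Npas2 inside in all 4. G6pc and Fbp1 of gluconeogenesis, Nags of the urea cycle and Abcb4 of bile secretion were inside in both KO lists and in neither control list.

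Pooled over 8 liver function lists with 88 constant promoters, 8 (9.09%, 4.68 to 16.9%) were inside a region in control male, 8 in control female, 46 (52.3%, 42.0 to 62.4%) in KO male and 23 (26.1%, 18.1 to 36.2%) in KO female liver. A region over the start was gained by 38 (43.2%) in males and lost by none, and gained by 16 (18.2%) and lost by 1 in females. Cytochromes P450, serpins and male-biased genes were not pooled as sets, although they share single members with the pool. Of 30 constant promoters of cytochromes P450, 2, 2, 5 and 6 were inside in control male, control female, KO male and KO female liver. Serpins had 2, 2, 5 and 4 of 16 in the same order, and male-biased genes 0 of 5 in each list. In KO male liver these were 16.7% of cytochromes P450 and 31.25% of serpins, against 27.5% of all constant promoters. Pooled over 10 general families with 468 constant promoters, 28 (5.98%), 22 (4.70%), 73 (15.6%) and 36 (7.69%) were inside, and 55 (11.8%) gained and 10 lost a region in males, while 24 (5.13%) gained and 10 lost one in females. Among all constant promoters, 15.3% gained a region in males and 7.51% in females, and 4.70% and 5.73% lost one. The general families thus gained regions less often than constant promoters as a whole in both sexes, and the liver function lists more often. The share that gained a region among all starts was 9.87% in males and 5.59% in females, and the share that lost one was 5.18% and 6.74%. Only the 8 liver function starts inside a region in each control list could lose one. Of the general families, 28 could in males and 22 in females. With the whole 4 kb around the start required to be inside, the liver lists had 6, 6, 38 and 19 of 88 and the general families 16, 12, 40 and 20 of 468. Without livers as replicates, this difference between the lists was not tested against the spread between livers.

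The 5 lists of markers of other liver cells (endothelial, Kupffer, stellate, bile duct and lymphoid) held 50 matched genes, of which 5 had a constant promoter, among them Tie1, Cd14, Reln and Sox9. Of the 50 starts, 41 were inside H3K27me3 in control male, 39 in control female, 36 in KO male and 31 in KO female liver, against 36.0, 33.8, 40.7 and 32.6% of all starts. Few of these starts could gain a region, 9 in males, of which 2 did, and 11 in females, of which none did, while 7 of 41 and 8 of 39 lost one. Of all starts that could change, 15.4% gained and 14.4% lost a region in males, and 8.45% gained and 19.9% lost one in females. For endothelial markers the numbers were 9, 8, 5 and 4 of 13, and for Kupffer cell markers 9, 7, 6 and 5 of 10. Stellate cell markers had 11, 11, 11 and 9 of 12, bile duct markers 6, 7, 7 and 7 of 7, and lymphocyte markers 6, 6, 7 and 6 of 8. Acetylation within 1 kb of the 50 starts was present for 6, 10, 12 and 14, against 45.6, 51.6, 52.6 and 52.2% of all starts, and the 4 lists held 28862, 48858, 55055 and 50426 autosomal H3K27ac peaks, whose part in these counts was not tested. Endothelial markers accounted for 2, 4, 6 and 9 of these. Of the 13 endothelial markers 4 (Lyve1, Pecam1, Oit3 and Gpr182) had no H3K27ac within 1 kb in any list, and Cdh5 and Eng had it in the KO lists and in neither control list. Kupffer cell markers had 1, 2, 1 and 1 of 10 with H3K27ac, stellate cell markers 1, 2, 3 and 2 of 12, bile duct markers 2 of 7 in each list and lymphocyte markers none of 8. Genes of neurons, muscle and islets had none of 10 with H3K27ac in any list and 9 or 10 inside H3K27me3 in each. Which cells of the liver carried the H3K27me3 at constant promoters cannot be told apart in these lists, and its relation to the other cell types was not tested.

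Flanking H3K4me1 was less frequent at the liver function genes than at the general families. In control male liver 62 of the 88 constant promoters (70.5%) and 449 of the 468 (95.9%) had it within 2 kb. In control female liver these were 48 (54.5%) and 422 (90.2%), and in KO male liver 54 (61.4%) and 422 (90.2%). In KO female liver these were 36 (40.9%) and 386 (82.5%). Over all constant promoters the shares were 90.2, 80.6, 82.5 and 71.1% in control male, control female, KO male and KO female liver. Over all protein-coding starts they were 56.5, 50.3, 56.4 and 46.8%. The difference between the 2 sets was not tested. Of the 8 constant promoters of bile acid synthesis and transport, 37.5% had it in control male liver. Slc10a1, the bile acid importer, Slc27a5 and Baat, which conjugate bile acids, and the thrombin precursor F2 had none within 2 kb in any list, and their H3K27ac peaks spanned 602 to 1120 bp in control male liver. Cyp8b1 had none either and had H3K27ac peaks of 613, 1920, 2878 and 1839 bp in control male, control female, KO male and KO female liver.

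Of 12 genes with male-biased expression in the liver 5 had a constant promoter (41.7%, 19.3 to 68.0%), Slco1a1, Ugt2b1, Hsd3b5, Cyp7b1 and Cyp2d9, beside 44.7% of all autosomal protein-coding genes. Of 17 female-biased genes 1 had one (5.88%, 1.05 to 26.98%), and the rule asks for a peak in both sexes. That gene, Fmo2, a flavin-containing monooxygenase, had a peak of 357 bp in control male, 1252 bp in control female, 383 bp in KO male and 1315 bp in KO female liver, and its start was inside an H3K27me3 region in control male liver alone. Slco1a1, an organic anion transporter, had 1430, 1807, 1409 and 818 bp. Cytochromes P450 are near-identical in several subfamilies, and peaks at such genes depend on how reads that match more than 1 place were mapped.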

How the data were processed

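ChIP-seq of H3K27ac, H3K4me1 and H3K27me3 was represented by 47 liver samples in 12 groups. The authors joined the paired-end reads of 50 nt from the livers of a group and mapped them with Bowtie 2 (version 2.3.2) to mm9. MACS2 2.1.1 gave the H3K27ac and H3K4me1 peaks. SICER 1.1 gave the H3K27me3 regions, from windows of 400 bp joined over gaps of up to 2400 bp, per the study's methods and the submitters' processing notes. The authors deposited 1 list of positions per mark and group, with no score, so depth is unknown. Ends of H3K27me3 regions were moved by 1 base to complete the last window. Starts were those of protein-coding GENCODE M1 genes on NCBIM37 (mm9). Overlaps, widths, motifs and Wilson intervals were computed with Python 3.11.15 and numpy 2.4.6, and the rule was tested on simulated data.

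The members, gene families (23) and gene lists (20) were chosen with earlier results of these data known, so they support no independent claim. Named genes were the 10 widest in control male liver, the 8 widest inside H3K27me3 in all 4 lists, in both control lists only and in both E1/E2-KO lists only, the 5 widest without H3K4me1 within 5 kb and with it on the start, the 5 with the largest ratio of widths, and in each list up to 4 of the widest plus, for lists of at most 15 genes, those left out. Further list members and the 9 printed starts were chosen after their values were seen. List genes not matched on an autosome (F9, Hmgcs1, Vsig4, Syp and Map2) were left out. Alternatives were another overlap, distance, start, merging, list length, flank and definition of inside. Single values of some list members are not reported here.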

Additional observations from a re-analysis of the deposited data

How the results depend on the processing

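The number of constant promoter peaks was 3447 when the peak had to hold the start and stayed within 1.5 times of the reported number under the other alternatives. Median widths in control male, control female, KO male and KO female liver were 1104, 1362, 1328 and 1202 bp with peaks within 1 kb merged, 1081, 1237, 1189 and 1054 bp for peaks that hold the start, and 784, 1079, 1016 and 888 bp with equal numbers of the widest peaks. Taken from their own list, an alternative added after seeing the data, they were 912, 856 and 720 bp in the last 3 lists. Control male liver was narrowest in all of these except against KO female in 2 of them. Shares with H3K4me1 were 77.3, 64.6, 67.1 and 54.9% within 1 kb and 97.0, 89.9, 92.0 and 81.7% within 5 kb. With equal numbers of the widest H3K4me1 peaks they were 83.2, 78.8 and 74.2% in the first 3 lists and 71.1% in KO female liver, whose list is the shortest, so KO male then lay below control female. Shares inside H3K27me3 were 13.8, 11.8, 22.6 and 13.5% with 2 kb on both sides inside, 26.2% in KO male liver with the whole H3K27ac peak inside, and 16.9 and 18.6% in control and KO female liver with X and Y included. For general families, an alternative added after seeing the data, they were 3.42, 2.56, 8.55 and 4.27% with 2 kb on both sides inside. Of 86 alternative gene counts 84 stayed within 1.5 times, and Hox genes and female-biased genes had 2 each within 2 kb. Causes of these shifts were not tested. No paired analysis was possible because each group is 1 pooled list, and no liver could be left out.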
